A study of Mus musculus with 8 samples.

Results

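The genes described here are 78 mouse genes whose RNA differed after 2 h of MEK inhibition although it had differed little during 4OHT treatment alone. They come from arrays of mouse embryonic stem cells, in a series titled as a study of the Erk-dependent transcriptome. The culture medium of every group, untreated cells included, contained the self-renewal cytokine LIF and 250 nM PD173074, which blocks FGF receptors. There were 4 groups of 2 arrays, stated to be biological replicates: cells given 250 nM 4OHT for 8 h and then 1 µM PD0325901 for 2 h, untreated cells, and cells with 4OHT alone for 8 h or for 10 h. PD0325901 inhibits MEK, the kinase that activates ERK, and 4OHT (4-hydroxytamoxifen) is a ligand used to activate fusion proteins that carry an altered oestrogen receptor domain. The labels name neither the protein that 4OHT acts on nor the cell line, and leave unstated if 4OHT was still present during inhibition. No group received PD0325901 without 4OHT, so the inhibitor's effect in cells without 4OHT was not measured.

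The genes were chosen by measured values, those of PD0325901 against 4OHT 10h and of both 4OHT times against untreated cells. A gene's level was the log2 processed signal of its brightest probe minus the array's 75th percentile, called the relative log2 signal here. The mean at 8 h and at 10 h of 4OHT had to differ from the untreated mean by under 0.4 on that scale. The inhibitor array had to lie at least 0.6 above, or at least 0.6 below, the 4OHT 10h array of the same number in both replicates. Both arrays of the higher group had to be marked as well above background. Of 20972 named genes, 7925 met the 4OHT and brightness parts and 78 met the whole rule (0.984% of the 7925). Of these, 49 were higher and 29 lower after PD0325901. The same inhibitor response without regard to 4OHT was met by 1168 genes (724 higher and 444 lower), so the 78 were 6.68% of the genes that answered the inhibitor in this way. The other 1090 genes had also moved by 0.4 or more with 4OHT at 1 or both times. Because the rule used the comparisons of PD0325901 and of both 4OHT times, the values of the 78 genes in them are given as a description and carry no test. A difference is followed by the SD of the differences within the 2 replicate numbers.

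In embryonic stem cells ERK is activated through RAS, RAF and MEK, mainly downstream of FGF receptors. It drives immediate early genes and genes of its own negative feedback, such as the Sprouty, SPRED and DUSP families, and it moves cells from naive pluripotency towards lineage priming. BMP signalling acts in parallel through SMAD proteins and switches on the ID genes and the inhibitory SMADs. The genes with a small 4OHT difference and a large inhibitor difference included genes of both pathways, among them Id3, Smad7 and Spred2.

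The inhibitor's action was visible in ERK target genes outside the set. Dusp6, a phosphatase of ERK, was lower after PD0325901 than at 4OHT 10h by a log2 difference of -5.85 ± 0.09 (SE, limma adjusted p = 5.25e-05), and Spry4, a feedback inhibitor, by -7.62 ± 0.16 (limma adjusted p = 0.000117). The immediate early genes Egr1 (-5.39, limma adjusted p = 0.0014) and Fos (-4.35, limma adjusted p = 0.00317) fell as well, while Etv4, an ETS factor, differed by -0.31 and did not pass the threshold of 0.05 (limma adjusted p = 0.107). These genes had risen with 4OHT, Dusp6 by 2.95 and Spry4 by 3.36 at 10 h. A rise of that size was excluded from the 78 genes by the rule. Smaller rises under 0.4 were allowed, and some lower genes, such as Vegfc, were called higher with 4OHT, as given below. All 12 embryonic stem cell markers on a fixed list were above background on all 8 arrays. Of 12 fibroblast markers, which feeder cells would carry, 4 were above background on all arrays and Lum, Twist2 and Prrx1 on none. The summed level of the 12 was 14.9 to 26.5 times the 75th percentile after PD0325901, 3.02 to 3.94 in untreated cells, 18.6 to 38.2 at 4OHT 8h and 20.2 to 42.3 at 4OHT 10h. Their median relative log2 signal was -3.40 and -4.23 after PD0325901, and -4.28 and -2.96 in untreated cells. It was -3.97 and -4.01 at 4OHT 8h, and -4.50 and -5.27 at 4OHT 10h. The sum was thus above its untreated level in every other group, while the median rose in no group in both replicates. The arrays had 30218 to 37789 of 59305 spots above background. Those of replicate 1 had at least 36889 and those of replicate 2 at most 31433, so dim probes were measured less often in replicate 2. The 8 arrays shared 1 slide. Group and slide column cannot be told apart, since each column held 1 group.

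Promoter windows are shown for 4 genes, chosen because they are among the genes with large differences in each direction and their windows differ in composition. Each window runs from 250 bases before to 50 after a RefSeq transcription start on assembly GRCm38.p6, 5′ to 3′ on the gene's strand. Capitals mark the motif named. The Id3 window (chr4:136143572-136143871, plus strand) holds 2 overlapping GC boxes, the letters GGGCGG bound by SP and KLF factors. The Vegfc window (chr8:54077282-54077581, plus strand) holds 1 EGR site, GCGNGGGCG, read on the opposite strand, and GC boxes left in lower case. The Csf1 window (chr3:107760420-107760719, minus strand) holds 2 GC boxes. The Runx2 window (chr17:44814578-44814877, minus strand) holds 3 copies of ACCACA, the core of the site that RUNX proteins bind. This last motif was added after the window had been seen.
Id3: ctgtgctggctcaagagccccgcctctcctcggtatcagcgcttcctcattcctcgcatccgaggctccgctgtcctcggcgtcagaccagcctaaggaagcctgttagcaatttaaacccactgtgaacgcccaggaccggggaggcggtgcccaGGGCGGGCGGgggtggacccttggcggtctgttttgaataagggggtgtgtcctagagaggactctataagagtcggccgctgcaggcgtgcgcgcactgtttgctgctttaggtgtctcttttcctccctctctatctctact
Vegfc: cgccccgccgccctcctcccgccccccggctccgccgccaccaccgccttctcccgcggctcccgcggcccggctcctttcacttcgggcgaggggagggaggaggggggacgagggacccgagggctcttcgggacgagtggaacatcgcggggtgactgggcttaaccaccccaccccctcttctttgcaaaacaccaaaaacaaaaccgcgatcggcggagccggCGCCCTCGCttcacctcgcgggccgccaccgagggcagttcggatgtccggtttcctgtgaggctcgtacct
Csf1: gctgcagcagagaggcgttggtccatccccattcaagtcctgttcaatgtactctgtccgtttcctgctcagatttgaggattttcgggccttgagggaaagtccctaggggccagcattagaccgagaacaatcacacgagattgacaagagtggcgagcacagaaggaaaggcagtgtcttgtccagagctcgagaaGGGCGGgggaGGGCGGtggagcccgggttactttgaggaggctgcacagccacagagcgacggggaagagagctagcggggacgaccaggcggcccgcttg
Runx2: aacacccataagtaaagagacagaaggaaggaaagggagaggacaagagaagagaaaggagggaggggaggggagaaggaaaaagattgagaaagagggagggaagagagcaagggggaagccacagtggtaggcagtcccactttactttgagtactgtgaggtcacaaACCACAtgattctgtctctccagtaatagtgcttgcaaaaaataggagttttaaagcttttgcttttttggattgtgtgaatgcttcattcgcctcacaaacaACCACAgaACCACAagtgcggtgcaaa

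RefSeq promoter windows were found for 58 of the 78 genes, 41 of the higher genes with 61 windows and 17 of the lower genes with 26. Motifs were searched on both strands. A GC box stood in 57.4% of the windows of higher genes and 65.4% of those of lower genes, against 60.5% of the windows of all genes that met the 4OHT and brightness parts and 35.7% of all 32851 windows. An EGR site stood in 4.92% and 11.5% of the windows of higher and lower genes, against 8.87% and 5.55% in those backgrounds. The windows with an EGR site among the lower genes belonged to Mmp14, Pim3 and Vegfc. AP-1 sites (TGANTCA) stood in 4.92% and 3.85% of the windows, against 4.89% and 7.81%, and E-boxes (CACGTG) in 13.1% and 7.69%, against 10.5% and 7.15%. ACCACA stood in 8.2% and 15.4%, against 12.7% and 16.8%. ETS sites (CCGGAAGT) stood in 6.56% and 0%, against 9.67% and 3.89%. CArG boxes (CC and GG around A or T letters) stood in 1.64% and 0%, against 1.31% and 1.63%. For CRE sites (TGACGTCA) the shares were 1.64% and 3.85%, against 3.45% and 1.79%. TATA boxes (TATAAA) stood in 4.92% and 0%, against 7.62% and 13.6%, and FOX sites (TGTTTAC) in 0% and 3.85%, against 2.63% and 3.65%. The GC box shares lay near those of expressed genes with a small 4OHT difference. Each share of the other motifs in the 78 genes rests on 8 windows or fewer. A match is a string of letters and was not measured as a binding site.

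Among the 49 higher genes the inhibitor difference against 4OHT 10h ranged up to 2.79 with a median of 0.86, and 18 were at least 2-fold higher. Among the 29 lower genes it reached -2.69 with a median of -0.83, and 8 were at least 2-fold lower. Across all 22655 features tested the median was -0.04. The gap between the differences of the 2 replicates had a median of 0.109, was under 0.1 for 35 genes and over 0.5 for 9. The rule asked both differences to pass 0.6 the same way, so these gaps are a description only. None is given for other genes. The 0.6 part of the rule was met by 4.51% of all features upwards and by 2.75% downwards. Both inhibitor arrays lay above all 6 other arrays for 49 of 49 higher genes, against 4.89% of all features tested, and below all 6 for 26 of 29 lower genes, against 9.06%. The exceptions were Sox17, Gm525 and Fbxw13. The rule itself favours such separation, so nothing is read from these shares. Another background correction, normexp with an offset of 50, which compresses dim signals, kept every sign but reduced the difference by over 1.5 times for 31 genes (22 higher and 9 lower). These included Runx2, Csf1, Zeb2, Sox17 and Fgf17, so the sizes given for dim probes depend on the correction.

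**Figure D1:**
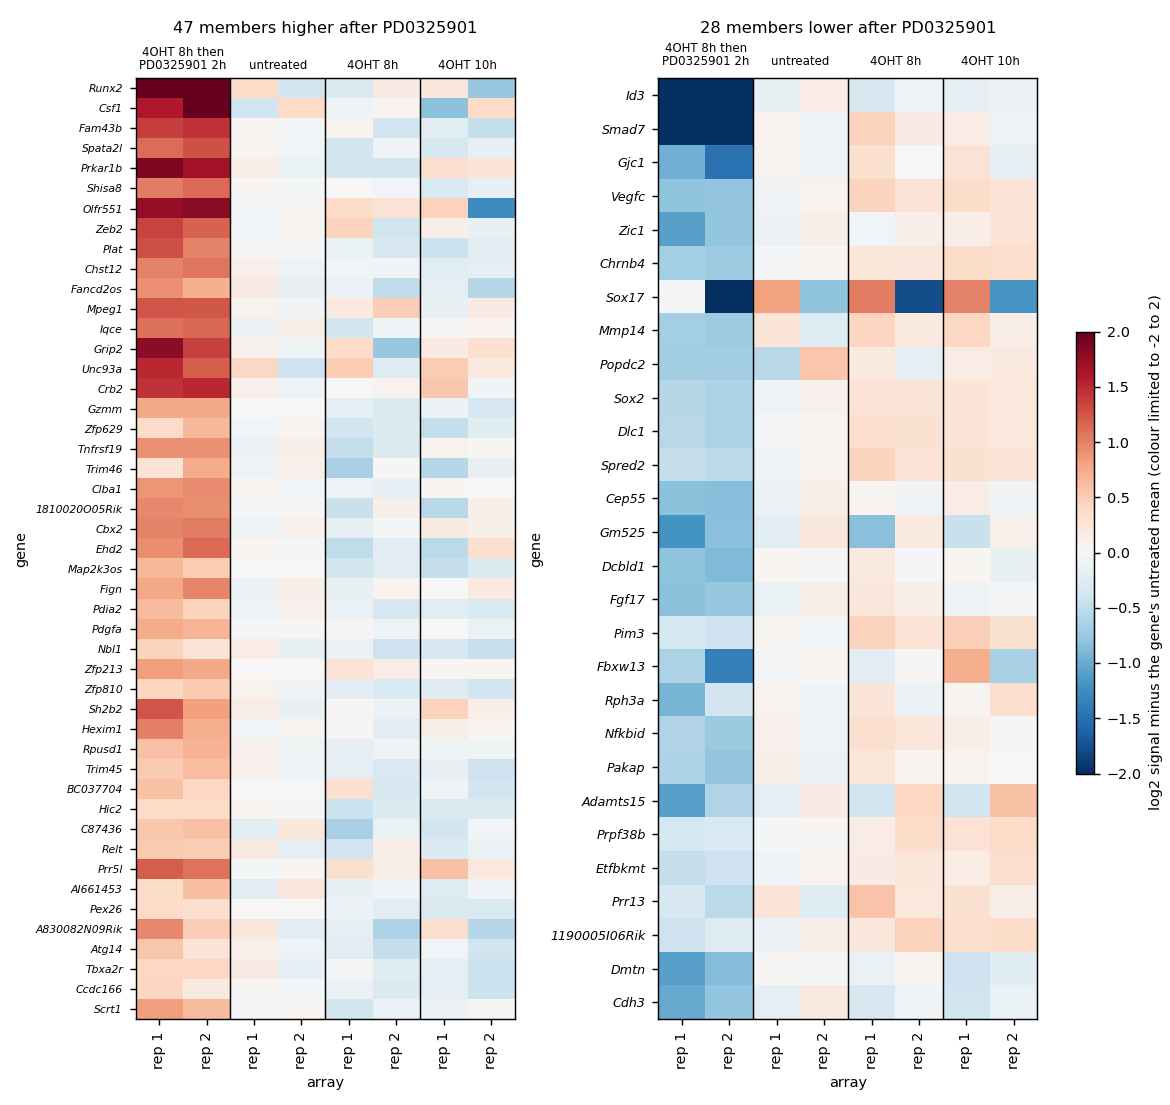
Each row is 1 of 75 of the 78 genes and each column 1 array. Colour gives the relative log2 signal minus the gene's untreated mean, limited to -2 and 2, with 47 higher genes on the left and 28 lower genes on the right. The pair of PD0325901 columns stands apart from the 6 other columns in nearly every row, and Sox17 also differs between replicate numbers.

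Among transcription and chromatin regulators, 10 genes were higher and 5 lower after PD0325901. Id3, an inhibitor of basic helix-loop-helix factors and a classical BMP target, had relative log2 signals of -1.40 and -1.37 after PD0325901, against 1.29 and 1.59 in untreated cells, 1.13 and 1.36 at 4OHT 8h, and 1.28 and 1.33 at 4OHT 10h. The inhibitor arrays lay far below all 6 others, which did not separate by group. The difference from 4OHT 10h was -2.69 ± 0.01 (SD, n = 2), or 6.46-fold. The related Id1 also fell after PD0325901, by 2.36 on the log2 scale (SE 0.17, limma adjusted p = 0.00268), but only after a rise of 3.09 at 4OHT 10h. Id2 rose by 2.22 (SE 0.33, limma adjusted p = 0.021), and Id4 differed by -0.09 (limma adjusted p = 0.865). Omitting either PD0325901 array or 4OHT 10h replicate 1 ended the call of Id2 (limma adjusted p from 0.0705 to 0.108). By value, the 4 ID genes thus had 4 different combinations of 4OHT and inhibitor differences.

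Sox2, a core pluripotency factor, had 3.45 and 3.40 after PD0325901, against 3.93 and 4.11 in untreated cells, 4.31 and 4.28 at 4OHT 8h, and 4.29 and 4.23 at 4OHT 10h. The difference was -0.83 ± 0.01 (SD, n = 2). The untreated arrays lay between the inhibitor arrays and both 4OHT groups. Of 27 tested genes of naive and general pluripotency, Sox2 among them, 5 rose and 6 fell, with a median of -0.15. Zic1, a zinc finger factor of early neural development, had -1.52 and -1.20 after PD0325901, against -0.54 and -0.31 in untreated cells, -0.49 and -0.30 at 4OHT 8h, and -0.30 and -0.15 at 4OHT 10h. A second Zic1 probe went the other way, at 0.64 with differences of 1.07 and 0.20 in the 2 replicates, so the direction of Zic1 depended on the probe. Zic2 (-0.78, limma adjusted p = 0.568) and Zic5 (-0.85, limma adjusted p = 0.397) did not pass, but did with the replicate number as a block (limma adjusted p = 0.0432 and 0.0436). Nfkbid, a nuclear inhibitor of the NF-kappaB family, differed by -0.72 ± 0.02 (SD, n = 2).

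Sox17, a factor of primitive and definitive endoderm, had -2.12 and -4.43 after PD0325901, against -1.29 and -2.90 in untreated cells, -1.08 and -3.87 at 4OHT 8h, and -1.10 and -3.27 at 4OHT 10h. The groups overlapped because replicate 1 was higher than replicate 2 throughout. Within replicates the differences were -1.02 and -1.16, and a second probe gave -0.85. With normexp the difference was -0.47. The median relative log2 signal of 12 primitive endoderm markers moved with the replicate number. It was between -0.62 and -0.73 on the arrays of replicate 1 and between -2.22 and -2.46 on those of replicate 2. The summed linear level of the 12, in the units used for the other lists, differed less between replicates. It was 401 and 293 in replicates 1 and 2 after PD0325901, and 302 and 253 in untreated cells. It was 357 and 289 at 4OHT 8h, and 372 and 312 at 4OHT 10h. Of these markers 9 were above background on all arrays and none was at background on all. Their part in the Sox17 values was not tested, and fewer cells of a type and less RNA per cell cannot be told apart in these bulk samples.

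Runx2, the master regulator of bone-forming cells, had the largest difference among the higher genes. Its relative log2 signal was -2.75 and -3.08 after PD0325901, against -5.06 and -5.82 in untreated cells, -5.72 and -5.28 at 4OHT 8h, and -5.21 and -6.19 at 4OHT 10h. The probe was above background on the inhibitor arrays and on none of the 6 others. Runx2 thus met the brightness part through the inhibitor arrays alone. The mean inhibitor signal was 3.55-fold above a floor on the 4OHT 10h arrays. This floor was the higher of the probe's own signal and the lowest signal well above background on each array. It rests on the dimmest such spot of an array, so the fold is not a strict lower limit. The measured difference was 2.79 ± 0.46 (SD, n = 2), and 0.67 with normexp. Runx1 (-0.69, limma adjusted p = 0.474) rose by 1.87 at 4OHT 10h (limma adjusted p = 0.0364) and did not pass the test after PD0325901.

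Zeb2, a repressor of epithelial genes, had -3.55 and -3.72 after PD0325901, against -4.96 and -4.85 in untreated cells, -4.46 and -5.31 at 4OHT 8h, and -4.80 and -5.05 at 4OHT 10h, and each of the other groups had only 1 array above background. Its difference was 1.29 ± 0.06 (SD, n = 2), and 0.32 with normexp. Cbx2, a Polycomb protein that reads methylated histone H3, had 2.02 and 2.06 after PD0325901, against 0.93 and 1.12 in untreated cells, 0.86 and 1.00 at 4OHT 8h, and 1.21 and 1.15 at 4OHT 10h. The other groups did not approach the inhibitor arrays. The related Cbx8 rose after PD0325901 too, by 2.58 (SE 0.21, limma adjusted p = 0.00361), and had fallen by 1.08 with 4OHT at 10 h. Hexim1, an inhibitor of the elongation factor P-TEFb, differed by 0.78 ± 0.14 (SD, n = 2). Other higher regulators were Hic2 (0.67), the neural repressor Scrt1 (0.78), and the zinc finger genes Zfp629 (0.87), Zfp213 (0.76) and Zfp810 (0.79). Zic1 is a neural progenitor marker, and 7 of 12 markers of that list were above background on all arrays. Olig2 and Zfp521 were above background on no array. The summed linear levels of the 12 were 4.73 to 5.05 times the 75th percentile after PD0325901, against 3.65 to 3.72 in untreated cells, 5.55 to 5.83 at 4OHT 8h and 5.33 to 6.16 at 4OHT 10h. Their median relative log2 signal was -2.845 and -2.914 after PD0325901, and -2.924 and -2.304 in untreated cells. It was -3.186 and -2.973 at 4OHT 8h, and -3.454 and -2.770 at 4OHT 10h, so it rose in no group in both replicates.

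**Figure D2:**
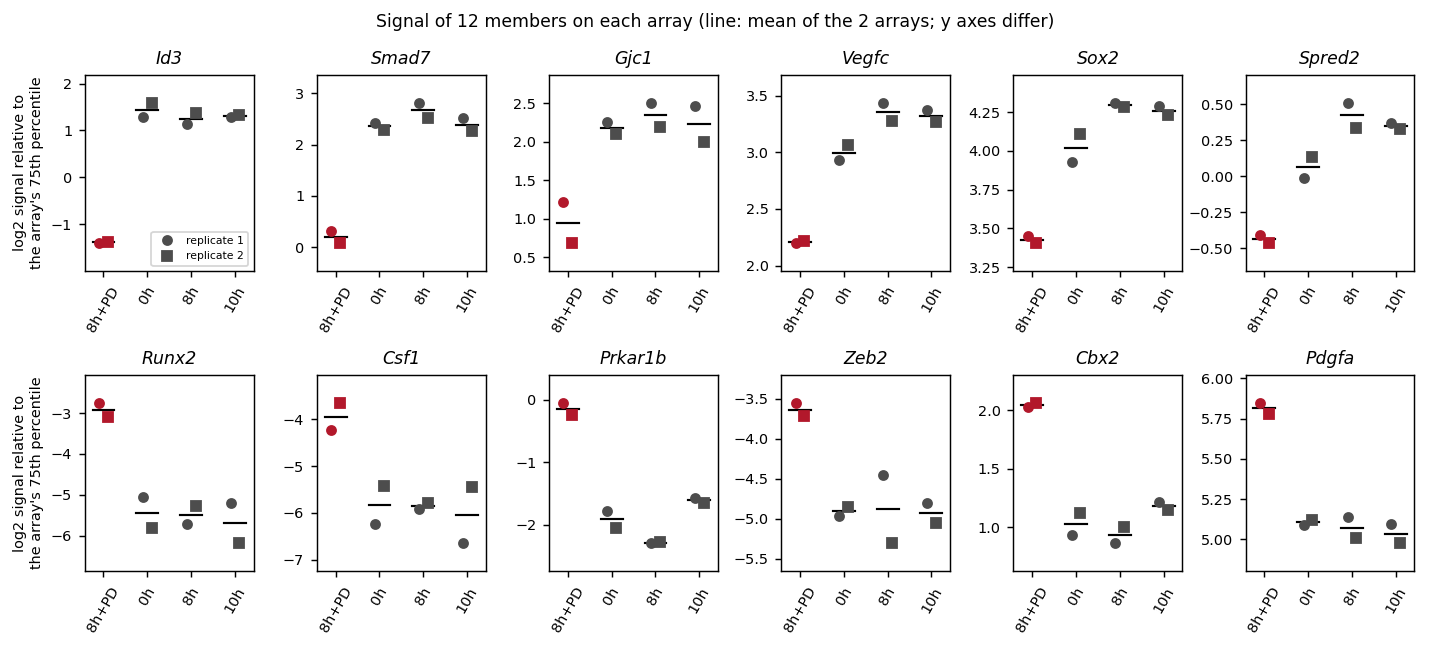
Relative log2 signal (y axis, scales differ between panels) of 12 of the genes on each array, by group (x axis, 8h+PD for 4OHT 8h then PD0325901, 0h for untreated). Circles are replicate 1, squares replicate 2 and lines the mean of 2 arrays. In every panel both PD0325901 points lie outside the range of the 6 other points.

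Among regulators of signalling, 4 genes were lower and 7 higher. Smad7, an inhibitory SMAD that blocks TGF-beta and BMP receptors, had 0.32 and 0.08 after PD0325901, against 2.43 and 2.29 in untreated cells, 2.82 and 2.52 at 4OHT 8h, and 2.51 and 2.27 at 4OHT 10h. The inhibitor arrays lay below all others, with differences of -2.19 and -2.18 in replicates 1 and 2, or 4.55-fold for their mean. Smad6, the other inhibitory SMAD, differed by 0.65 and did not pass without the block (limma adjusted p = 0.193), though it did with the replicate block (limma adjusted p = 0.0441). Of 26 tested SMAD, BMP and TGF-beta target genes, which include Id3 and Smad7, 4 rose and 7 fell after PD0325901, with a median of -0.29.

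Spred2, which restrains RAS and RAF, had -0.41 and -0.46 after PD0325901, against -0.01 and 0.13 in untreated cells, 0.51 and 0.33 at 4OHT 8h, and 0.37 and 0.33 at 4OHT 10h. All 4 arrays of the 4OHT groups lay above the untreated arrays and the inhibitor arrays lay below them. Spred1 fell by 1.26 after PD0325901 (SE 0.07, limma adjusted p = 0.00145) after a rise of 1.97 with 4OHT, and Spred3 differed by -0.60 (limma adjusted p = 0.203). Of 23 tested ERK feedback and ETV genes, 12 fell and 1 rose, with a median of -0.79, and Spred2 was the member of this list with a small 4OHT difference. Of 37 tested immediate early genes, 22 fell and 4 rose, with a median of -1.06, and Id3 was the member among them.

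Pim3, a serine/threonine kinase that promotes survival, had 4.01 and 3.94 after PD0325901, against 4.42 and 4.30 in untreated cells, 4.82 and 4.64 at 4OHT 8h, and 4.83 and 4.66 at 4OHT 10h. The ordering was that of Spred2: untreated arrays lay between the inhibitor arrays and those with 4OHT alone. Its relative Pim1 fell by 2.15 (SE 0.10, limma adjusted p = 0.00123) after a rise of 1.01. Dlc1, a GTPase-activating protein, differed by -0.83 ± 0.01 (SD, n = 2). Among the higher genes, Prkar1b, a regulatory subunit of protein kinase A, had -0.05 and -0.24 after PD0325901, against -1.78 and -2.05 in untreated cells, -2.30 and -2.29 at 4OHT 8h, and -1.57 and -1.66 at 4OHT 10h. Here the 4OHT 10h arrays were above the 4OHT 8h arrays, so the difference was 1.47 against 10 h and 2.15 against 8 h. The adaptor Sh2b2 (0.75), the mTORC2-binding Prr5l (0.76), the TNF receptor family members Tnfrsf19 (0.86) and Relt (0.71), and the thromboxane receptor Tbxa2r (0.73) were also higher. A second Tnfrsf19 probe had 4OHT differences of -1.0 at 8 h and -1.28 at 10 h, and a second Prr5l probe of 0.65 and 1.15. For both genes the small 4OHT difference thus held for 1 of 2 probes. The odorant receptor Olfr551 had -2.78 and -2.74 after PD0325901, against -4.59 and -4.49 in untreated cells, -4.17 and -4.25 at 4OHT 8h, and -4.08 and -5.80 at 4OHT 10h. Each of its other groups had 1 array above background, and its replicate differences, 1.29 and 3.05, were the least alike of the set, so that without replicate 2 the difference was 1.29 in place of 2.17.

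Among secreted factors and proteases, 5 genes were higher and 4 lower. Csf1, the growth factor of macrophages, had -4.23 and -3.65 after PD0325901, against -6.23 and -5.43 in untreated cells, -5.92 and -5.78 at 4OHT 8h, and -6.65 and -5.44 at 4OHT 10h. It was above background on the inhibitor arrays and on no other array. Its mean inhibitor signal was 2.01-fold above the floor described for Runx2, again not a strict lower limit. With normexp the difference was 0.34. Pdgfa, a ligand of the PDGF alpha receptor, had 5.85 and 5.78 after PD0325901, against 5.09 and 5.12 in untreated cells, 5.14 and 5.01 at 4OHT 8h, and 5.10 and 4.98 at 4OHT 10h. Its second probe gave 0.73, close to the 0.78 of the first. The BMP antagonist Nbl1 (0.75), the plasminogen activator Plat (1.47) and the protease Gzmm (0.98) were higher.

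Vegfc, a growth factor of lymphatic vessels, had 2.20 and 2.21 after PD0325901, against 2.93 and 3.06 in untreated cells, 3.44 and 3.27 at 4OHT 8h, and 3.37 and 3.27 at 4OHT 10h. The untreated arrays were again intermediate. The difference was -1.11 ± 0.08 (SD, n = 2), and Vegfa, the main factor of blood vessels, differed by -1.04, which passed only with the replicate block (limma adjusted p = 0.222, and 0.0131 with the block). Fgf17, an FGF of the FGF8 subfamily, had -3.09 and -3.03 after PD0325901, against -2.41 and -2.13 in untreated cells, -2.04 and -2.13 at 4OHT 8h, and -2.35 and -2.30 at 4OHT 10h. The difference was -0.73 ± 0.02 (SD, n = 2), and -0.23 with normexp. The membrane-bound metalloproteinase Mmp14 (-0.98 ± 0.16, SD, n = 2) and the secreted metalloproteinase Adamts15 (-0.93 ± 0.35, SD, n = 2) were lower.

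Among junction, adhesion, channel and other membrane proteins, 6 were higher and 6 lower. Gjc1, a gap junction connexin, had 1.22 and 0.69 after PD0325901, against 2.26 and 2.11 in untreated cells, 2.51 and 2.19 at 4OHT 8h, and 2.47 and 2.01 at 4OHT 10h. The inhibitor arrays lay below all 6 others. Outside the set, Gja1, the most widely expressed connexin, fell by 0.87 (SE 0.07, limma adjusted p = 0.00355) after a rise of 1.36 with 4OHT. The summed linear level of 12 trophoblast markers was 24.4 and 25.2 times the 75th percentile after PD0325901, against 11.8 and 12.8 in untreated cells, 11.2 and 14.1 at 4OHT 8h, and 13.2 and 18.4 at 4OHT 10h. The median relative log2 signal of the same markers was -1.04 and -1.18 after PD0325901, against -3.30 and -2.75 in untreated cells, -0.94 and -0.88 at 4OHT 8h, and -0.56 and -0.24 at 4OHT 10h. The sum was thus above and the median below their 4OHT 10h values. Of these markers 8 were above background on all arrays and Tpbpa on none, and their part in the values of the higher genes was not tested. The classical cadherin Cdh3 (-0.63), Popdc2 (-0.87), Dcbld1 (-0.80) and the acetylcholine receptor subunit Chrnb4 (-1.06) were lower. The polarity protein Crb2 (1.25), Ehd2 of caveolae (1.13), Shisa8 (1.32), Grip2 (1.32) and Unc93a (1.01) were higher. With normexp these differences were 0.64, 0.55, 1.06, 0.33 and 0.40 in the same order. Grip2 was above background on only 1 array of each other group, and Unc93a on 1 array of untreated cells and of 4OHT 8h.

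**Figure D3:**
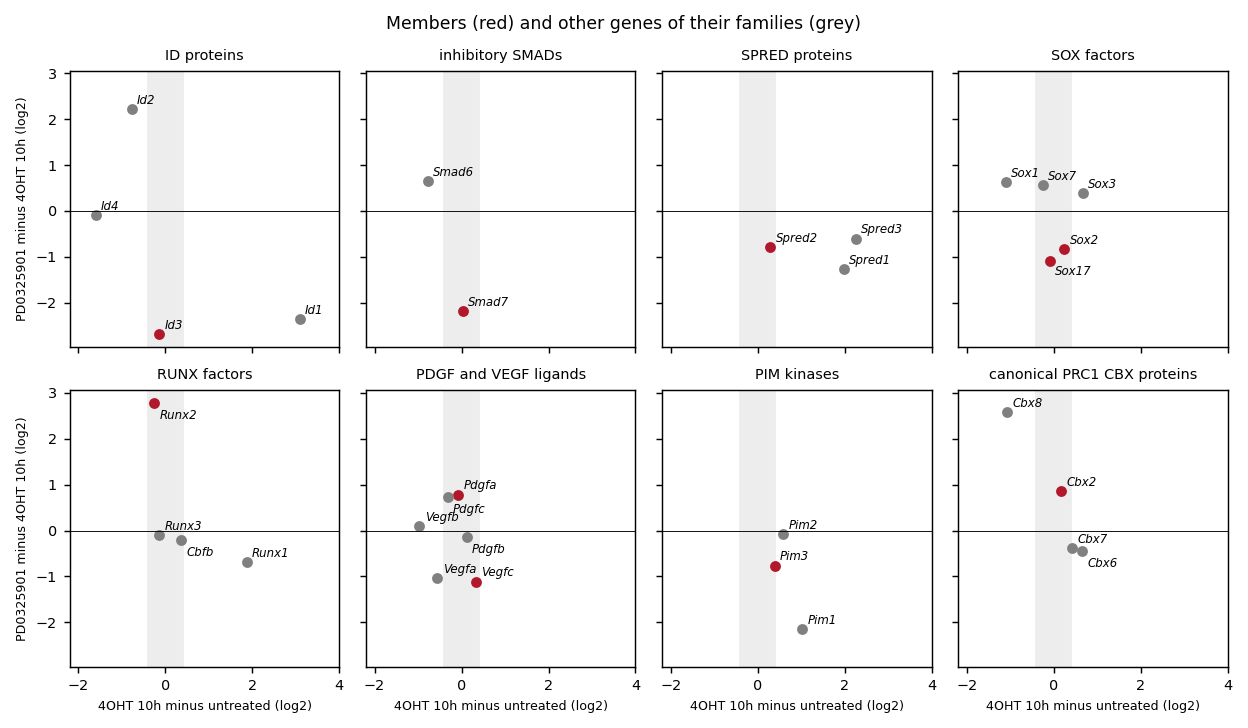
Each point is a gene above background in at least 1 group, placed by its log2 difference between 4OHT 10h and untreated cells (x axis) and between PD0325901 and 4OHT 10h (y axis), in 8 gene families. Red points belong to the 78 genes, grey points do not, and the grey band marks 4OHT differences under 0.4. Id3 and Id1 lie at similar heights but far apart along the x axis, and Cbx8 lies to the left of and above Cbx2.

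Of the 10 genes of the cytoskeleton, cilia, trafficking and ubiquitin ligases, 5 were higher and 5 lower. The higher ones were the microtubule-severing Fign (0.78), Iqce of the cilium (1.08), Clba1 (0.89) and the tripartite motif genes Trim45 (0.86) and Trim46 (0.87). The lower ones were Cep55 of the midbody (-0.87), the actin-binding Dmtn (-0.64), Pakap (-0.73), Rph3a (-0.85) and the F-box gene Fbxw13 (-1.03). Of 8 genes of enzymes, organelles and RNA processing, 6 were higher, among them the sulfotransferase Chst12 (1.24), the autophagy factor Atg14 (0.64), the peroxisomal Pex26 (0.65) and Mpeg1 (1.24), a pore-forming protein of macrophages. The 2 lower ones were the splicing factor Prpf38b (-0.66) and the methyltransferase Etfbkmt (-0.70). A second Pex26 probe had 4OHT differences of -0.45 at 8 h and -0.70 at 10 h, outside the 0.4 window. A further 13 genes, 10 higher and 3 lower, are given no role here, and the largest differences among them were those of Fam43b (1.75), Spata2l (1.44) and Fancd2os (1.19). By RefSeq class, 75 of the 78 genes were protein-coding and 3 were long noncoding RNAs.

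The comparison of PD0325901 with 4OHT 10h in limma called 1392 of 22655 features tested (6.14%), of which 737 were higher (3.25% of those tested) and 655 lower (2.89%), and with the replicate number as a block 2819. Among the 78 genes 30 higher and 21 lower were called, and 70 in all with the block, numbers that follow from the rule. The comparisons of the same inhibitor arrays with 4OHT 8h and with untreated cells are not independent of the rule either, since it kept the 4OHT differences under 0.4, and the counts in them are descriptions only. Against 4OHT 8h, the start of inhibition, the median difference was 0.96 for the higher genes and -0.87 for the lower genes. By limma 31 higher and 21 lower genes of the 78 were called there, and of all features 3.41% were called higher and 3.12% lower (6.52% in all). A difference of at least 0.6 was found for 44 of 49 higher and 28 of 29 lower genes. Of the 7925 genes that met the 4OHT and brightness parts, the 78 included, 224 had such a difference in either direction. Against untreated cells the medians were 0.81 and -0.79, and 31 higher and 18 lower genes were called, while of all features 7.08% were called higher and 8.81% lower (15.9% in all). The rule itself places the higher genes above, and the lower genes below, the untreated level. The smallest differences from it were 0.30 for Ccdc166 and -0.32 for Prpf38b.

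The 4OHT differences of the 78 genes were small by rule and not all alike. By limma 4 genes were called at 4OHT 8h (Hic2 lower, Vegfc, Dlc1 and Spred2 higher), against 11.5% of all features lower and 10.3% higher (21.8% in all), and 6 at 4OHT 10h (Zfp810 and Pex26 lower, Vegfc, Chrnb4, Pim3 and Prpf38b higher), against 14.8% lower and 13.1% higher (27.9% in all). With the replicate block these numbers were 17 and 20. The share of all features called with the block is not given for these comparisons, so nothing is read from them. The sign at 8 h was opposite to the inhibitor difference for most genes. The rule limited the size of the 8 h difference. That difference also shares the untreated arrays with the 10 h difference, which the rule limited too. The 10 h difference in turn shares arrays with the inhibitor comparison. The shares below are therefore a description only, and none is given for the 1090 genes with a 4OHT change. Of the 49 higher genes 41 (83.7%) were below untreated at 4OHT 8h, against 7 of 29 lower genes (24.1%) and 50.8% of the 7925 genes that met the 4OHT and brightness parts. With arrays centred on their median, which raised the median 4OHT 8h difference of all genes by 0.135, the shares were 61.2%, 13.8% and 26.5%. Under both scalings the share was largest among the higher genes and smallest among the lower genes. The median difference at 4OHT 10h was -0.22 for higher genes and 0.09 for lower genes. That comparison shares the 4OHT 10h arrays with the inhibitor comparison, so no share is given for it.

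**Figure D4:**
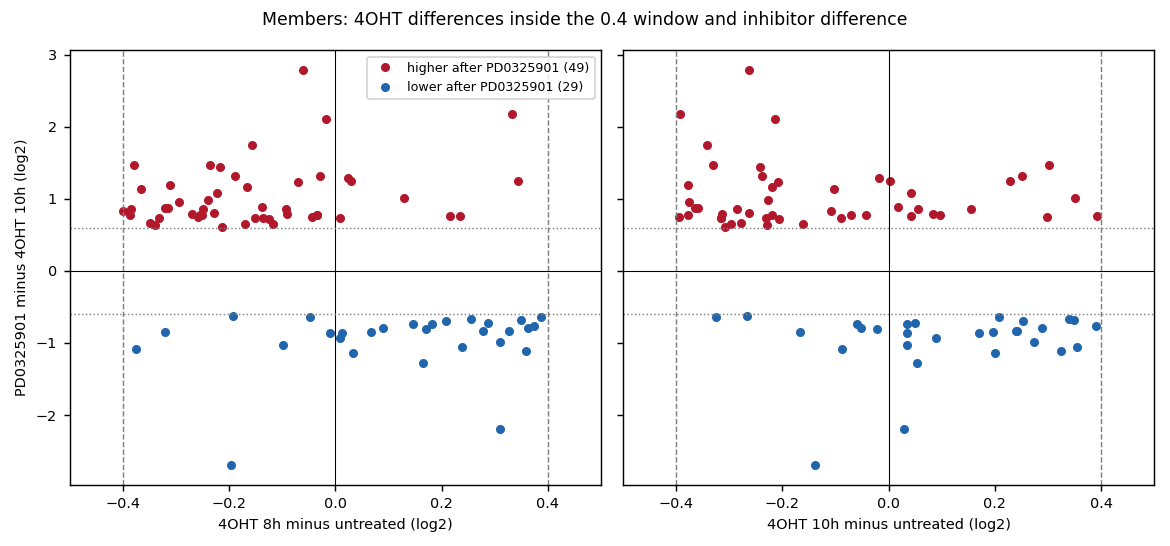
Each point is 1 of the 78 genes, placed by its log2 difference from untreated cells at 4OHT 8h (left) or 10h (right) on the x axis and by the difference between PD0325901 and 4OHT 10h on the y axis. Dashed and dotted lines mark the thresholds of 0.4 and 0.6. At 4OHT 8h most red points (49 higher genes) lie left of 0 and most blue points (29 lower genes) right of it.

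The thresholds divide a continuous range. Just inside 0.6 were Scrt1, Ccdc166 and Tbxa2r, with smaller replicate differences of 0.61, and just outside were Itih4, Il6st and Arf2, at 0.60, 0.60 and 0.59. Among lower genes Cdh3, Dmtn and 1190005I06Rik stood inside, at -0.61, -0.62 and -0.63, and Sdf2, Foxp1 and Ak4 outside, at -0.60, -0.60 and -0.59. Zc3h12a, an RNase that degrades inflammatory transcripts, differed by -1.39 and -1.08 after PD0325901 but missed the set with a 4OHT 8h difference of 0.41. At 0.6 and 0.4 the genes on either side of the line thus hardly differed.

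For 16 of the 78 genes a second probe above background was available, hybridised to the same RNA. It had the same sign as the first for 15 genes, all but Zic1. It passed 0.6 the same way in both replicates for 9, and 5 of these (Pdgfa, Trim45, Cep55, Dcbld1 and Sox17) also met the 4OHT part. Among genes with the same inhibitor response and a 4OHT change, 125 of 216 second probes (57.9%) passed the same way, against 56.2% here, and among other genes 2.92% passed either way. The inhibitor difference was thus repeated by a second probe about as often as in the genes that also answered 4OHT. The complete pattern was repeated for fewer.

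**Figure D5:**
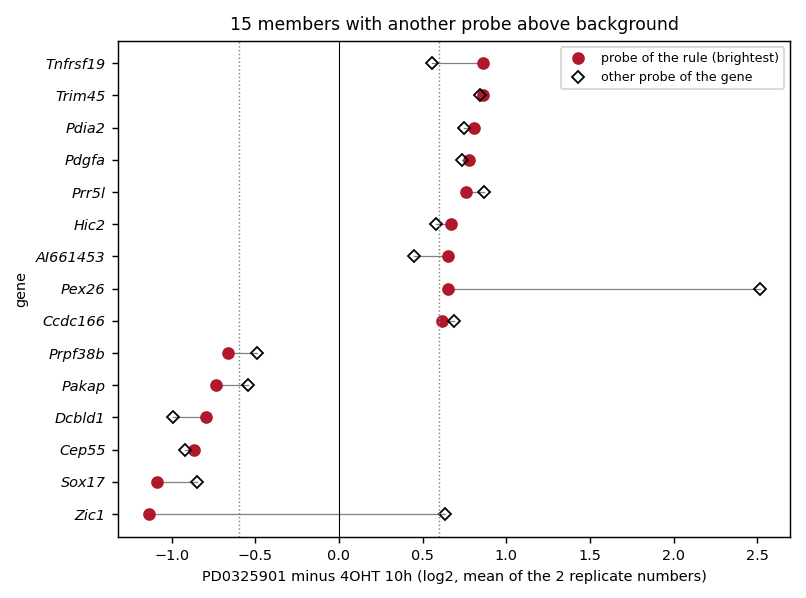
The log2 difference between PD0325901 and 4OHT 10h (x axis, mean of 2 replicate numbers) for the probe that the rule used (red circle) and another probe of the same gene (open diamond), for 15 of the 16 genes with such a probe. Dotted lines mark -0.6 and 0.6. The probes of Zic1 lie on opposite sides of 0, and the Pex26 diamond at 2.52 averages replicate values of 0.63 and 4.40.

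Gene order was taken from RefSeq. Of 117 measured neighbours of the 78 genes that were not themselves in the set, 11 passed 0.6 in both replicates (9.40%), near the 8.32% of all named genes above background. These 11 had the same sign as the gene beside them. For genes with the same inhibitor response and a 4OHT change, 213 neighbours passed, neighbours of that same set included. Of those, 193 (90.6%) had the same sign as the gene beside them, so such agreement was not particular to the 78 genes. Prkar1b and Pdgfa, both in the set, are adjacent on chromosome 5, and Fgf17 and Dmtn, also both in the set, lie on chromosome 14 with 1 gene between them. Cbx8 lies next to Cbx2. E2f2, a cell cycle factor next to Id3, fell by 1.93 (SE 0.30, limma adjusted p = 0.0246) after a rise of 1.22 with 4OHT, and omitting any 1 of the 4 arrays in the comparison ended its call (limma adjusted p from 0.0601 to 0.111). Tmem191c, at 1.49, overlaps Hic2 in RefSeq, so their signals may not be separate.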

How the data were processed

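RNA from mouse embryonic stem cells was measured on 8 single-colour arrays of Agilent design 028005, with 1 array per sample. Per the labels' protocols, 100 ng of RNA was labelled with a low-input kit. The labels name Cy5 while the files hold 1 channel named green. The deposited processed signal is a background-subtracted intensity, not scaled between arrays, from Feature Extraction 11.0.1.1 (per the file headers). The authors' value table, deposited beside the scanner files, repeats that intensity on a linear scale, not centred and with no direction to settle, rounded to 3 digits (largest difference 0.5%). Its column medians were 22.4 and 23.9 for 4OHT 8h then PD0325901 2h, 29.9 and 27.9 for untreated, 23.5 and 26.5 for 4OHT 8h, and 21.6 and 23.7 for 4OHT 10h.

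Control spots (3671 of 62976) and outlier spots (169 to 249 per array) were left out, spots of a probe were averaged, and no spot was saturated (0 on each array). Probes were named by RefSeq accession (27656 of 55681, 49.7%, with 1 symbol and 0 with several, the others unnamed here) from RefSeq's list for GRCm38.p6. The array design uses mm9, so its coordinates were not used. Log2 of the signal minus the array's 75th percentile was fitted for all 8 arrays in limma 3.58.1 (R 4.3.3, data.table at 1.17.8; reading with Python 3.11.15, numpy 2.4.6, pandas 2.3.3; figures with matplotlib 3.10.9). A probe entered if marked well above background on the 2 arrays of any group. Tests were two-sided moderated tests with Benjamini-Hochberg adjustment over 22655 features and a threshold of 0.05, on 4 residual degrees of freedom. The fit was tested on simulated data.

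The members and gene lists were chosen with earlier results of these data known. Named were the 15 genes per direction with the largest smaller replicate difference, members of the lists, genes at the thresholds, genes with a sure role, and 5 ERK targets. Families and roles were chosen after values were seen. Same-numbered arrays deviated together from their group means (r 0.29 to 0.35 in all 6 pairs), so the replicate number pairs the samples and its block is given where it changes a call. Replicate numbers are also rows of the slide. The number of arrays limits the precision. Some items are not reported here.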

Additional observations from a re-analysis of the deposited data

How the results depend on the processing

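Across quantile and normexp processing and the mean of a gene's probes, none of the 78 differences changed sign (0 reversed). Neither did any with array medians or the value table, which moved them by at most 0.0762 and 0.0061, too little for a reversal. Either replicate alone could not reverse a sign, since the rule asked both replicates to pass the same way. Normexp moved 62 by more than the replicate SD, at most by 2.11. Membership depended more on the processing. By setting, the higher and lower genes numbered 54 and 23 with array medians (29 and 16 shared with the main set), 59 and 27 with quantiles (39 and 23 shared), and 47 and 22 with normexp (16 and 15 shared). With the rule applied to 1 replicate they numbered 175 to 203 and 89 to 134. Calls against 4OHT 10h, 4OHT 8h and untreated numbered 333, 358 and 1070 when dim probes were kept, 335, 327 and 1411 when each fit held just its own groups, and 2819, 3179 and 6277 with the replicate block. Leaving out 1 array gave 370 to 576, 397 to 534 and 1193 to 1662, with 15 to 26, 18 to 25 and 24 to 31 of the 78 genes called. Each array of the groups compared lowered the count by over 1.5 times. The cause was not tested. With array medians the split against 4OHT 10h was 492 higher and 683 lower, against 737 and 655, and against untreated 1874 and 917, against 1604 and 1997. Id4 was at 0.22 without 4OHT 10h replicate 1 and at -0.39 without 4OHT 10h replicate 2. Among related genes the block changed the call of Cbx6 (limma adjusted p = 0.0294), besides those named above, and of no gene from called to not called. The calls of Id2 and E2f2 also ended with dim probes kept (limma adjusted p = 0.0811 and 0.0923) and with only their groups fitted (0.0741 and 0.0968). Dim probes were measured less often in replicate 2, which limits genes such as Runx2, Csf1, Zeb2, Olfr551 and Grip2.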
